A study of Mus musculus with 4 samples.

Results

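The antioxidant and glutathione enzymes were examined in RNA sequencing of brown adipose tissue (BAT). The members were chosen by gene name alone: the superoxide dismutases (Sod), glutathione peroxidases (Gpx), peroxiredoxins (Prdx), thioredoxin reductases (Txnrd), soluble (Gst) and microsomal (Mgst) glutathione transferases, and Txn1, Txn2, Gclc, Gclm, Gss, Gsr, Nqo1, Hmox1, Nfe2l2, Keap1 and Srxn1, with names ending in -ps left out. This gave 57 of the 55387 rows of the deposited values. BAT came from 4 male mice aged 15 weeks with a C57BL/6 background, 2 Sox4f/f mice, whose Sox4 gene is flanked by loxP sites but intact and whose genotype the labels give as WT, and 2 Sox4-MKO littermates, which carry the same floxed alleles with Myf5-Cre. Myf5 is active in precursors of brown adipocytes and of skeletal muscle, so the deletion is not restricted to brown fat. Each mouse gave 1 library of whole BAT, although the labels name BAT adipocytes as the cell type. The comparison asked how loss of the transcription factor SOX4 in this lineage was reflected in the mRNA of the enzymes that handle reactive oxygen and lipid peroxides.

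Superoxide formed by the respiratory chain is turned into hydrogen peroxide by superoxide dismutases, SOD1 mainly in the cytosol, SOD2 in the mitochondrial matrix and SOD3 outside the cell. Peroxides are then reduced by peroxiredoxins, which draw electrons from NADPH through thioredoxin reductase and thioredoxin, and by glutathione peroxidases, which use glutathione. Glutathione is made by glutamate-cysteine ligase (Gclc, Gclm) and glutathione synthetase (Gss), recycled by glutathione reductase (Gsr), and joined to electrophiles by glutathione transferases. The transcription factor NRF2 (Nfe2l2), held in check by KEAP1, drives many of these genes through antioxidant response elements. Brown fat is rich in mitochondria that burn lipid for heat, and peroxides and lipid aldehydes are by-products of that activity.

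Values are in FPKM, which counts fragments per transcript length and relative to the mapped total of a library, so levels of different genes can be set side by side. The libraries held an estimated 12100000 to 16200000 fragments. Sox4 itself was at 1.98 and 1.06 FPKM in Sox4f/f mice 1 and 2 and at 0.98 and 3.06 FPKM in those with the Sox4-MKO label (1 and 2). The log2 difference was 0.20 with a standard error of 0.43 (adjusted p = 0.843, limma), and it was −0.32 without Sox4-MKO mouse 2. Sox4 mRNA therefore did not check the labels, and every direction below follows the labels.

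The skeletal muscle markers summed to 209 and 769 FPKM in Sox4f/f mice 1 and 2, against 14866 and 2580.0 FPKM in those with the Sox4-MKO label (1 and 2). These 10 markers include the muscle creatine kinase Ckm and the myosin heavy chains Myh1, Myh2 and Myh4. Of them, 9 were higher without overlap and 8 were called higher by the test described below, against 7.95% of all rows tested. The brown adipocyte markers, led by Cox8b, Ucp1 and Cidea, summed to 8211 and 7984 FPKM in Sox4f/f and to 4186 and 4827 FPKM under the Sox4-MKO label, with 7 of 8 lower without overlap. All 7 fibroblast markers were higher without overlap, as were 9 of 10 macrophage markers and 4 of 5 mast cell markers. Among all rows tested, 21.7% were higher and 29.6% lower without overlap. Of 8 general adipocyte markers, 2 were higher and 3 lower without overlap, and of 7 endothelial markers 3 were lower. Higher without overlap were 2 of 7 erythroid and 3 of 5 Schwann cell markers. Of 7 lymphocyte markers, 1 was higher and 1 lower. Macrophage markers summed to 229 and 339 FPKM in Sox4f/f mice against 475 and 463 FPKM. In bulk tissue, fewer cells of a type and less RNA per cell cannot be told apart, and the part of the other cell types in the results was not tested. Counts of members are therefore given with and without the library labelled Sox4-MKO 1. Leaving it out does not remove the muscle difference, since the library labelled Sox4-MKO 2, at 2580.0 FPKM, also exceeded both Sox4f/f libraries.

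**Figure D1:**
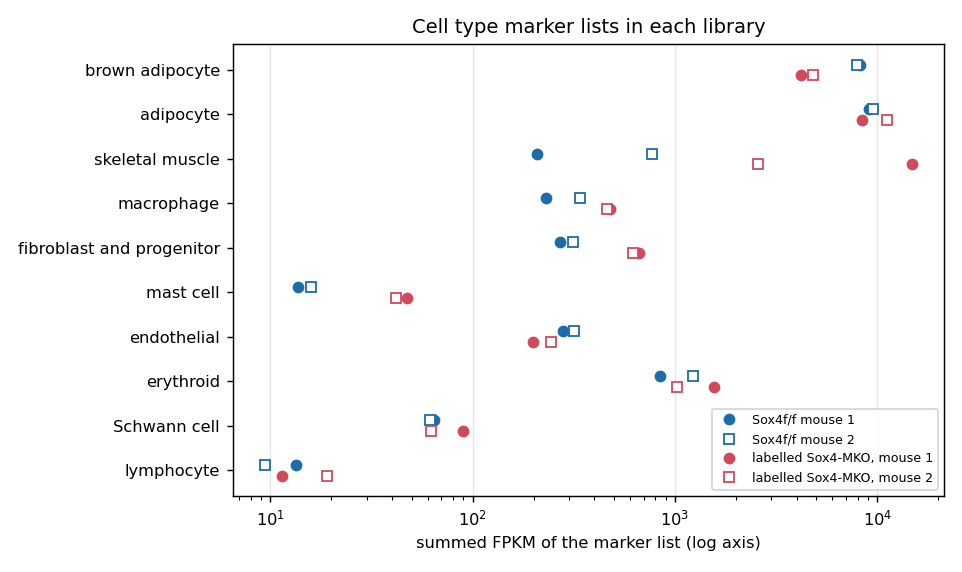
Summed FPKM of each list of cell type markers (log axis) in the 4 libraries, blue for Sox4f/f and red for the libraries labelled Sox4-MKO, filled circles for mouse 1 and open squares for mouse 2. The skeletal muscle list stands at 14866 FPKM in the library labelled Sox4-MKO 1, and the brown adipocyte list is lower in both libraries with that label.

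Of the 57 members, 49 had a mean FPKM above 1 in either genotype and entered the test, limma on log2(FPKM + 1). A member was called lower or higher at an unadjusted p under 0.05, the threshold of the study. At that threshold 8 members were lower under the Sox4-MKO label (Sod2, Txn2, Txnrd2, Prdx5, Prdx6, Gpx8, Gss and Gsto1) and 6 were higher (Gsta3, Mgst2, Gstz1, Mgst3, Gpx7 and Gstm2). This is 16.3% and 12.2% of the tested members, against 8.28% called lower and 7.95% called higher among all 12877 rows tested. After Benjamini-Hochberg adjustment over all rows no member was under 0.05, and the smallest adjusted p among the members was 0.196 (limma). With 2 mice against 2, the smallest two-sided p of an exact permutation test of a single gene is 0.333, and the p-values measure only the spread between these mice.

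Counted without a test, 17 of the 49 tested members were lower in both libraries labelled Sox4-MKO than in both Sox4f/f libraries, and 12 were higher in both. Among all rows tested these shares were 29.6% and 21.7%, so the members' counts lie near the background. The median log2 difference of the tested members was −0.07, and that of all rows tested was −0.05. Without the library labelled Sox4-MKO 1, 8 members were called lower, 7 of them as before, and 2 were called higher, Gsta3 and Gstz1. The shares among all rows were then 7.88% lower and 7.21% higher. Prdx6 was lost from the lower members there and Prdx2 was gained, while Gpx7, Gstm2, Mgst2 and Mgst3 were lost from the higher ones. Without Sox4f/f mouse 1, only Gss, Sod2, Txn2 and Txnrd2 were called lower (4 members) and Gsta3, Gstz1 and Mgst2 higher (3 members), against 2.95% and 3.36% of all rows. Without Sox4f/f mouse 2, 3 were called lower (Gss, Sod2, Txn2; 6.12%) and 2 higher (Gsta3, Mgst2; 4.08%), against 3.80% and 4.46% of all rows, so the higher share was near the background. Without the library labelled Sox4-MKO 2, 7 were lower, with Prdx6 and Txnrd2 lost and Gpx3 gained, 6 were higher, with Gpx7 lost and Nqo1 gained, and the median of the members was 0.047. The shares among all rows in that fit were 6.33% lower and 11.2% higher, near the 12.2% of members called higher. Gss, Sod2, Txn2 and Gsta3 were called whichever library was left out. The enzymes as a whole summed to 7907 and 7935 FPKM in Sox4f/f and to 6346 and 6893 FPKM under the Sox4-MKO label, lower without overlap. The sum of all rows was lower too, at 578011 and 544564 against 495145 and 472062 FPKM. As a share of that sum, the enzymes took 1.37% and 1.46% in Sox4f/f and 1.28% and 1.46% under the Sox4-MKO label.

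**Figure D2:**
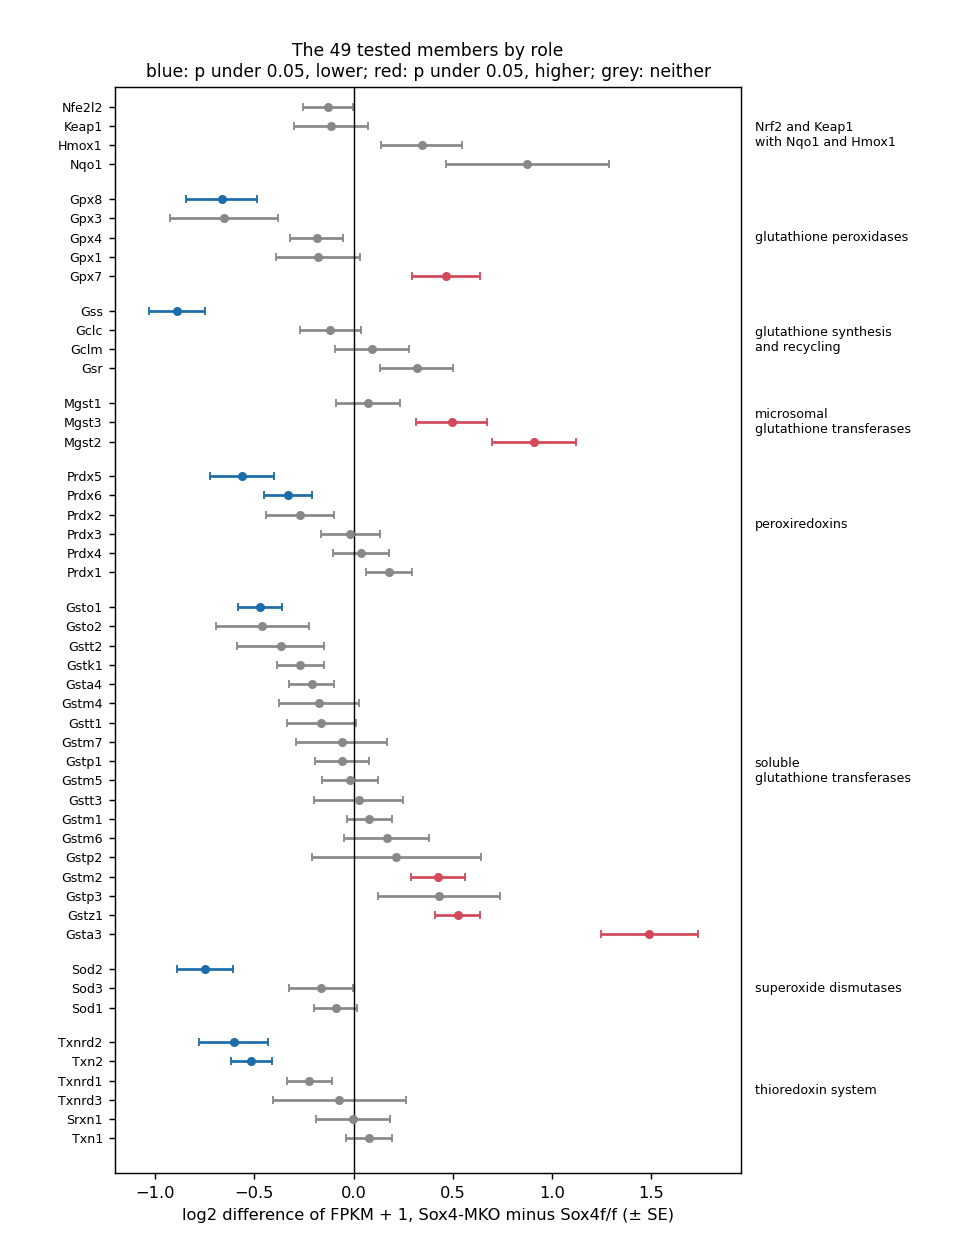
Log2 difference of FPKM + 1, libraries labelled Sox4-MKO minus Sox4f/f, with its standard error for each of the 49 tested members, grouped by role. Blue members were called lower and red members higher at an unadjusted p under 0.05. The largest difference is that of Gsta3 at 1.49, and the lowest that of Gss at −0.89.

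Of the superoxide dismutases, Sod2 (chromosome 17, 13006846 to 13040063, GRCm38, plus strand) was lower and its 2 relatives were not called. Sod2 was at 438 and 505 FPKM in Sox4f/f mice and at 299.8 and 260.3 FPKM in libraries with the Sox4-MKO label, with no overlap. The means were 472 ± 46.9 and 280.0 ± 27.9 FPKM (SD, n = 2 mice each), a ratio of 0.594 and a log2 difference of −0.75 with a standard error of 0.14 (adjusted p = 0.196, limma). The log2 difference was −0.85 without the library labelled Sox4-MKO 1. Sod1 was the most abundant dismutase and was at 548 and 567 FPKM in Sox4f/f mice and at 518 and 529 FPKM under the Sox4-MKO label. The groups did not overlap for Sod1 either, but its log2 difference of −0.09 had a 95% interval from −0.38 to 0.20. Sod3, the extracellular enzyme, had a log2 difference of −0.16 with overlapping groups.

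The thioredoxin system splits into a cytosolic pair, Txn1 with its reductase Txnrd1, and a mitochondrial pair, Txn2 with Txnrd2, and both mitochondrial members were lower. Txn2 (chromosome 15, 77915047 to 77929006, minus strand) was at 215.7 and 215.2 FPKM in Sox4f/f mice and at 150.1 and 150.7 FPKM in libraries with the Sox4-MKO label. The values of each genotype were within 1 FPKM of each other and the log2 difference was −0.52 with a standard error of 0.10 (adjusted p = 0.207, limma), a ratio of 0.698. Txnrd2 was at 30.9 and 38.1 FPKM in Sox4f/f mice and at 24.5 and 20.2 FPKM under the Sox4-MKO label. That is a ratio of 0.647 and a log2 difference of −0.60 with a standard error of 0.17 (adjusted p = 0.241, limma), again without overlap. Txn1, at 101 and 92.2 against 104 and 99.7 FPKM, had a log2 difference of 0.08 and overlapping groups. Txnrd1 was lower without overlap, at 39.4 and 41.3 against 34.6 and 34.3 FPKM, but at a log2 difference of −0.22 it was not called. Txnrd3 and Srxn1, the sulfiredoxin that restores overoxidised peroxiredoxins, had log2 differences of −0.07 and 0.00.

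The 6 tested peroxiredoxins included 2 lower members, Prdx5 and Prdx6 (33.3%, against 8.28% of all rows), and none that were called higher. Prdx5, an atypical peroxiredoxin found in mitochondria, peroxisomes and the cytosol, was at 241 and 243 FPKM in Sox4f/f mice and at 186 and 143 FPKM in libraries with the Sox4-MKO label. The groups did not overlap, and the log2 difference was −0.56 with a standard error of 0.16 (adjusted p = 0.241, limma). Prdx6, which reduces phospholipid peroxides with glutathione, was at 152 and 134 FPKM in Sox4f/f mice and at 113 and 114 FPKM under the Sox4-MKO label. Its log2 difference of −0.33 had a standard error of 0.12 (adjusted p = 0.292, limma), and without the library labelled Sox4-MKO 1 the difference was −0.32 and not called. The call was lost in 9 of the 14 alternatives, among them quantile normalization and scaling to a common sum without mitochondrially encoded genes and Ucp1, where the difference was −0.26. Prdx3, the peroxiredoxin of the mitochondrial matrix, stood apart from Sod2, Txn2 and Txnrd2: it was at 235 and 272 FPKM in Sox4f/f mice and at 273 and 229 FPKM under the Sox4-MKO label. These values overlapped and the log2 difference was −0.02 (95% interval −0.41 to 0.38). Prdx1, a cytosolic enzyme, was at 242 and 235 FPKM against 285 and 257 FPKM, higher without overlap but not called at a log2 difference of 0.18. Prdx2 and Prdx4, the latter of the endoplasmic reticulum, had log2 differences of −0.27 and 0.04, and Prdx6b was listed at 0 in every library.

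Ratios of members within one library do not depend on how the libraries were scaled. The pairs were chosen after the values were seen and were not tested. The Sod2/Sod1 ratio was 0.800 and 0.890 in Sox4f/f and 0.578 and 0.492 in the libraries labelled Sox4-MKO. The Txn2/Txn1 ratio was 2.13 and 2.33 against 1.44 and 1.51. In both pairs the mitochondrial member lost ground to its cytosolic relative in each library with that label. The Prdx5/Prdx1 ratio was 0.995 and 1.03 against 0.654 and 0.558. The Txnrd2/Txnrd1 ratio was 0.785 and 0.924 against 0.707 and 0.591. The Prdx3/Prdx1 ratio was 0.971 and 1.15 against 0.957 and 0.891, and here the nearest libraries of the groups all but met.

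**Figure D3:**
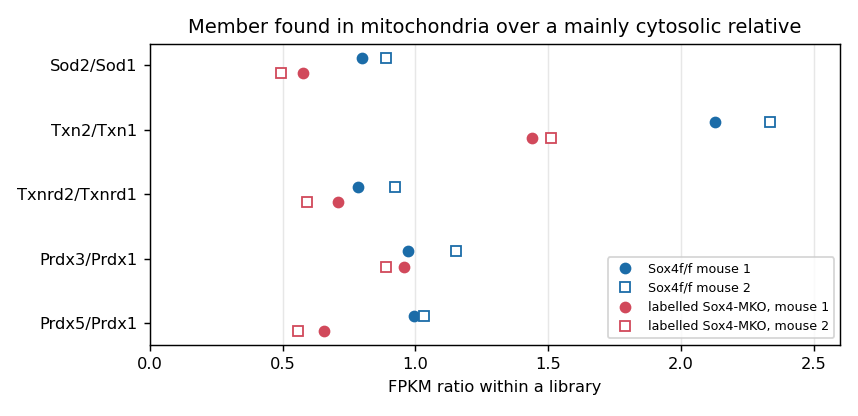
Ratio of the FPKM of a member found in mitochondria to that of a mainly cytosolic relative within each library, blue for Sox4f/f and red for the libraries labelled Sox4-MKO, filled circles for mouse 1 and open squares for mouse 2. The ratio is lower in both libraries labelled Sox4-MKO for all 5 pairs, with the smallest gap for Prdx3/Prdx1.

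The glutathione peroxidases held the most abundant members of all. Gpx3, the secreted plasma peroxidase, was at 2333 and 2195 FPKM in Sox4f/f mice and at 1113 and 1858 FPKM in libraries with the Sox4-MKO label. The groups did not overlap, but the libraries with that label differed from each other more than the nearest ones of the 2 groups did. Its log2 difference of −0.65 had a 95% interval from −1.37 to 0.06 and was not called. It was −0.28 without the library labelled Sox4-MKO 1 and −1.02, and called, without that labelled Sox4-MKO 2. Gpx4, which reduces lipid peroxides in membranes and guards against ferroptosis, was at 1098 and 1192 FPKM in Sox4f/f mice against 1069 and 947 FPKM. Its log2 difference was −0.19 (95% interval −0.54 to 0.16), and 61.7% of its 50-base stretches also lie in the processed pseudogene Gpx4-ps2. Gpx1, found in the cytosol and mitochondria, had overlapping groups and a log2 difference of −0.18.

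The 2 peroxidases of the endoplasmic reticulum moved in opposite directions. Gpx8 was at 135.9 and 121 FPKM in Sox4f/f mice and at 69.8 and 93.2 FPKM in libraries with the Sox4-MKO label. This is a log2 difference of −0.66 with a standard error of 0.18 (adjusted p = 0.231, limma), with no overlap. Gpx7 was at 3.64 and 3.997 FPKM in Sox4f/f mice and at 6.06 and 5.25 FPKM under the Sox4-MKO label, from an estimated 63, 62, 99 and 110 fragments. Its log2 difference was 0.47 with a standard error of 0.17 (adjusted p = 0.296, limma), and 0.38 and not called without the library labelled Sox4-MKO 1. The call was lost in 8 of the 14 alternatives, among them quantile normalization, no FPKM limit and a limit of 5. Gpx2, Gpx5 and Gpx6 were listed at 0 in all 4 libraries.

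Among the genes of glutathione synthesis and recycling, Gss was lower while the enzymes before and after it did not pass the test. Gss (chromosome 2, 155563181 to 155592810, minus strand) encodes glutathione synthetase, the last step of synthesis. It was at 18.9 and 20.0 FPKM in Sox4f/f mice and at 9.42 and 10.7 FPKM in libraries with the Sox4-MKO label, from an estimated 499, 474, 234 and 341 fragments. The means of 19.5 ± 0.76 and 10.1 ± 0.91 FPKM (SD, n = 2 mice each) gave a ratio of 0.517 and a log2 difference of −0.89 with a standard error of 0.14 (adjusted p = 0.196, limma). It was −0.81 without the library labelled Sox4-MKO 1, and called. Gclc, the catalytic subunit of glutamate-cysteine ligase, was at 8.04 and 7.14 against 7.21 and 6.61 FPKM, with a log2 difference of −0.12. Gclm, the modifier subunit, was at 13.0 and 12.5 against 16.0 and 11.7 FPKM, with a log2 difference of 0.09. Both overlapped between the groups. Gsr was higher without overlap, at 8.60 and 11.6 against 13.0 and 12.3 FPKM, but was not called at a log2 difference of 0.32. The Gss/Gclc ratio was 2.35 and 2.80 in Sox4f/f and 1.31 and 1.62 under the Sox4-MKO label.

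Exons of Gss share 395 bases with those of Acss2, acetyl-CoA synthetase, on the opposite strand. Acss2 was at 80.8 and 126 FPKM in Sox4f/f mice and at 235 and 178 FPKM under the Sox4-MKO label, the opposite direction to Gss. Whether strand was used in counting is not given in the sources used here, and its part in the Gss values was not tested. Exons of Gstz1 and Prdx5 likewise share 465 and 409 bases with Pomt2 and Trmt112 on the opposite strand.

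The soluble glutathione transferases, which conjugate glutathione to electrophiles such as lipid aldehydes, included 3 higher members and 1 lower member among 18 tested. That is 16.7% higher and 5.56% lower, against 7.95% and 8.28% of all rows, so the lower share was under the background. Gsta3 (chromosome 1, 21240589 to 21265661, plus strand), an alpha class transferase with steroid isomerase activity, had the largest difference of all members. It was at 6.80 and 11.1 FPKM in Sox4f/f mice and at 25.9 and 26.7 FPKM in libraries with the Sox4-MKO label, from an estimated 133, 196, 477 and 632 fragments. The means of 8.97 ± 3.06 and 26.3 ± 0.57 FPKM (SD, n = 2 mice each) gave a ratio of 2.93 and a log2 difference of 1.49 with a standard error of 0.24 (adjusted p = 0.196, limma). The spread in Sox4f/f was wider than under the Sox4-MKO label, the groups lay well apart, and the difference was 1.51 without the library labelled Sox4-MKO 1. Its closest tested relative by class, Gsta4, which acts on the lipid aldehyde 4-hydroxynonenal, was at 43.4 and 43.3 against 38.6 and 36.1 FPKM. Gsta4 was thus lower without overlap, but not called at a log2 difference of −0.21. The Gsta3/Gsta4 ratio was 0.157 and 0.257 in Sox4f/f and 0.672 and 0.741 under the Sox4-MKO label.

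Gstz1, the maleylacetoacetate isomerase of tyrosine breakdown and the most abundant soluble transferase, was at 183 and 169 FPKM in Sox4f/f mice and at 248 and 257 FPKM in libraries with the Sox4-MKO label. The groups did not overlap, with a ratio of 1.44 and a log2 difference of 0.52 with a standard error of 0.11 (adjusted p = 0.212, limma). Gstm2, a mu class enzyme, was at 53.6 and 48.8 FPKM in Sox4f/f mice and at 74.3 and 64.1 FPKM under the Sox4-MKO label. Its log2 difference of 0.42 had a standard error of 0.13 (adjusted p = 0.256, limma), and the value of 0.32 without the library labelled Sox4-MKO 1 was not called. Gsto1, an omega class enzyme with thioltransferase and dehydroascorbate reductase activity, was the lower one, at 96.6 and 94.9 FPKM in Sox4f/f mice and at 66.2 and 71.5 FPKM in libraries with the Sox4-MKO label. Its log2 difference was −0.47 with a standard error of 0.11 (adjusted p = 0.214, limma).

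The other 14 tested soluble transferases were not called, with log2 differences from −0.46 (Gsto2) to 0.43 (Gstp3). Gstp3 averaged 0.490 FPKM in Sox4f/f mice and passed the FPKM limit only through the libraries labelled Sox4-MKO. Gstk1, found in mitochondria and peroxisomes, was at 58.2 and 64.2 FPKM in Sox4f/f mice and at 51.7 and 49.5 FPKM under the Sox4-MKO label, lower without overlap and with a log2 difference of −0.27. The pi class gene Gstp1 had a log2 difference of −0.06 and the mu class gene Gstm1 one of 0.08. Gstp1 shares 62.3% of its 50-base stretches with Gstp2, so how fragments were divided between them is uncertain. Gstm3 and Gsta2 were listed at 0 in every library. Gsta1 was listed at 0.146 FPKM in Sox4f/f mouse 2 and at 0 elsewhere, and Gstt4 did not exceed 0.403 FPKM.

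The microsomal glutathione transferases, membrane enzymes that also reduce lipid hydroperoxides, had 2 of 3 members called higher, against 7.95% of all rows. Mgst2 was at 9.98 and 6.78 FPKM in Sox4f/f mice and at 17.0 and 15.8 FPKM in libraries with the Sox4-MKO label, from an estimated 81, 49, 129 and 155 fragments. Its log2 difference was 0.91 with a standard error of 0.21 (adjusted p = 0.214, limma), a ratio of 1.96 without overlap, and the value of 0.86 without the library labelled Sox4-MKO 1 was not called. Mgst3 was at 56.5 and 60.3 FPKM in Sox4f/f mice and at 96.0 and 71.0 FPKM under the Sox4-MKO label. Its log2 difference of 0.49 had a standard error of 0.18 (adjusted p = 0.294, limma), and it was 0.28 and not called without the library labelled Sox4-MKO 1. Mgst1, much the most abundant of the family, was at 573 and 468 FPKM against 506 and 585 FPKM, with overlapping groups and a log2 difference of 0.07.

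**Figure D4:**
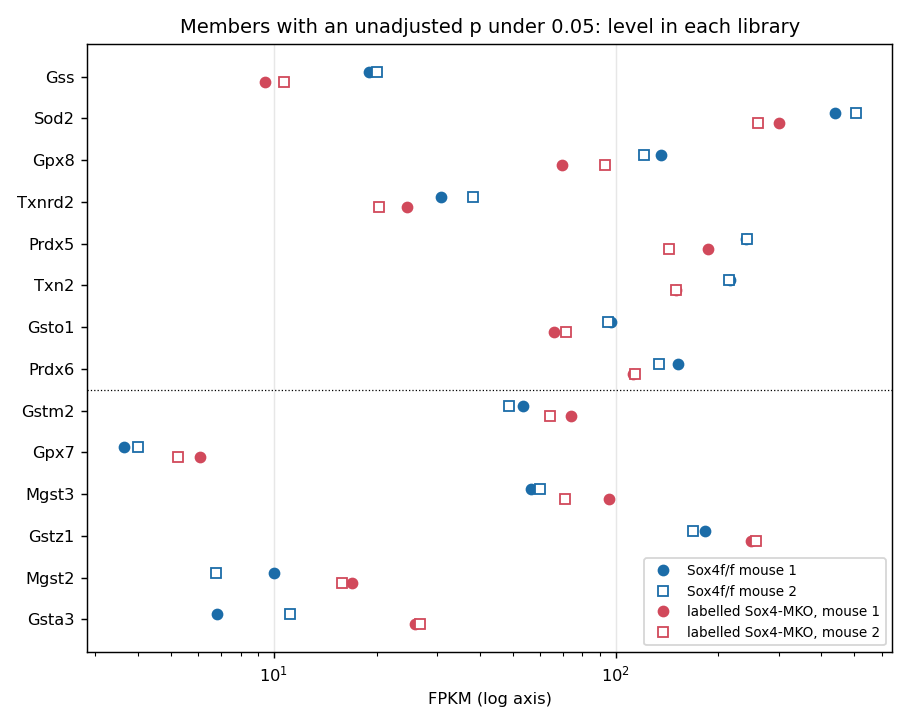
FPKM (log axis) in each of the 4 libraries for the 14 members with an unadjusted p under 0.05, lower members above the dotted line and higher members under it, blue for Sox4f/f and red for the libraries labelled Sox4-MKO, filled circles for mouse 1 and open squares for mouse 2. The groups do not overlap for any of the 14, and the tightest pairs are those of Txn2, at 215.7 and 215.2 FPKM against 150.1 and 150.7 FPKM.

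None of the 4 members that regulate or report on the NRF2 pathway was called. Nfe2l2 was at 33.6 and 29.99 FPKM in Sox4f/f mice and at 29.4 and 28.5 FPKM in libraries with the Sox4-MKO label, with a log2 difference of −0.13 (95% interval −0.46 to 0.20). Keap1 had overlapping groups and a log2 difference of −0.11. Hmox1, the inducible haem oxygenase, was at 8.18 and 11.0 against 13.7 and 11.1 FPKM, a log2 difference of 0.34 with the nearest libraries of the groups almost level. Nqo1, a quinone reductase that is a common readout of NRF2, was at 0.952 and 0.986 FPKM in Sox4f/f mice and at 4.25 and 1.48 FPKM under the Sox4-MKO label, from an estimated 20, 18, 83 and 37 fragments. Its log2 difference of 0.87 had a standard error of 0.41 (adjusted p = 0.370, limma), and it was 0.33 without the library labelled Sox4-MKO 1, the one with 83 fragments. Nqo1 averaged 0.969 FPKM in Sox4f/f mice and so entered the test only through the libraries labelled Sox4-MKO. Of the well known NRF2 targets among the members, Gclc, Gclm, Gsr, Srxn1, Txnrd1 and Prdx1 were also not called. Their log2 differences ran from −0.22 to 0.32. The transferases Gsta3 and Gstm2, which NRF2 can also drive, were among the members called higher. Other transferases were not called, among them Gstm1 at 0.08, Mgst1 at 0.07, Gstp1 at −0.06 and Gsta4 at −0.21. These targets are examples and not a full list.

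The core of the antioxidant response element, TGACNNNGC, was searched on both strands of the 250 bases before the start of each gene in RefSeq (GRCm38.p6). Promoters were found for 49 member genes, which are not the same set as the 49 tested members. No promoter was found for Gclc, Gsr, Gsta4, Gstt2, Hmox1, Prdx6, Prdx6b and Sod3, so these were not searched. Of the 49 searched genes, 9 (18.4%) held the letters, against 11.5% of all 27025 genes with a promoter. Gsta3 was the only called member among the 9, and the others were Gclm, Gstm5, Gstm7, Mgst1, Nfe2l2, Prdx1, Sod1 and Txnrd1. The stretch of Gsta3 is shown because it belongs to the member with the largest difference, and those of Gclm, Prdx1 and Txnrd1 because they belong to NRF2 targets that were not called. Capitals mark the core, printed as its reverse complement where it lies on the strand opposite to the gene.
Gsta3 (chr1:21240434-21240502, gene strand plus): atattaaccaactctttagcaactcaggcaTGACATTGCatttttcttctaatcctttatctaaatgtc
Gclm (chr3:122245393-122245461, gene strand plus): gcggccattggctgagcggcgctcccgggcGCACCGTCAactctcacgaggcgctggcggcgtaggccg
Prdx1 (chr4:116685436-116685504, gene strand plus): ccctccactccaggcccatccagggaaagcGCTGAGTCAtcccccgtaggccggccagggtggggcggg
Txnrd1 (chr10:82859084-82859152, gene strand plus): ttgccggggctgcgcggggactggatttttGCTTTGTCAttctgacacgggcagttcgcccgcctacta
The letters stood 121 to 113 bases before the start of Gsta3 and 134 to 126, 133 to 125 and 92 to 84 bases before those of Gclm, Prdx1 and Txnrd1. A match is a description of the sequence and not a bound site. The SOX letters ACAAAG were in 20.4% of the member genes and 18.6% of all genes. The letters TCAAGGTCA of oestrogen-related receptors were in 0 of 63 member promoters, against 0.387% of all 32851 promoters.

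Of 71 tested rows from 4 lists of other redox genes outside the rule, 13 were called lower (18.3%) and 12 higher (16.9%), against 8.28% and 7.95% of all rows, again with no adjusted p under 0.05 (limma). Scaled to a common sum without mitochondrially encoded genes and Ucp1, the counts were 12 lower and 18 higher, with 5.79% and 10.3% of all rows. Without the library labelled Sox4-MKO 1 the counts were 14 lower and 5 higher, the latter 7.04% against 7.21% of all rows. When Sox4f/f mouse 1 or 2 was left out, 7 were lower (9.86%), against 2.95% or 3.80% of all rows. Among 16 rows of NADPH supply, which feeds both the thioredoxin and the glutathione branch, 3 were lower (18.75%) and 5 higher (31.25%). The shares of all rows were 8.28% and 7.95%. The median log2 difference of the 16 rows was 0.24, and 0.076 without the library labelled Sox4-MKO 1. Me1, the cytosolic malic enzyme, was at 128 and 181 FPKM in Sox4f/f mice and at 510.2 and 423 FPKM in libraries with the Sox4-MKO label, a log2 difference of 1.60. Pgd, of the pentose phosphate pathway, was likewise higher at a log2 difference of 0.70. A pair of mitochondrial sources were lower: Idh2, at 254 and 256 against 167 and 140.3 FPKM, had a log2 difference of −0.73, and the mitochondrial malic enzyme Me3 one of −0.68. Pgls, also of the pentose phosphate pathway, was lower by the same measure at −0.73, at 200.3 and 205 against 113.6 and 129.8 FPKM. Nnt, the proton-driven transhydrogenase, has 2 rows, of which the one at 0.0007 and 0.518 against 1.69 and 1.05 FPKM was called higher and the other was not. The called row, counted among the 5 higher ones, passed the FPKM limit only through the libraries labelled Sox4-MKO. It could therefore be called only higher.

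Among 17 rows of glutathione supply and turnover, 3 were called lower and 3 higher (17.6% each, against 8.28% and 7.95% of all rows). Slc25a39, which carries glutathione into mitochondria, was at 164 and 173 FPKM in Sox4f/f mice and at 113 and 112 FPKM under the Sox4-MKO label, with a log2 difference of −0.57. Oplah, the 5-oxoprolinase that returns glutamate to the cycle, had a log2 difference of −0.70. The higher ones were degrading enzymes. Ggt5 and Dpep1, which cleave extracellular glutathione and its products, were at 1.05 and 0.74. Chac1, which cleaves cytosolic glutathione, was at 1.37, from 0.756 and 0.0983 against 3.42 and 1.90 FPKM. Chac1 passed the FPKM limit only through the libraries labelled Sox4-MKO, so it could be called only higher. Among 21 rows of peroxide and thiol enzymes, 5 were lower (23.8%) and 2 higher (9.52%), the latter near the 7.95% of all rows. Ccs, the copper chaperone of SOD1, was lower at a log2 difference of −0.59, as was Aifm2, the ferroptosis suppressor that regenerates reduced coenzyme Q, at −0.56 and 208 and 193 against 133 and 138 FPKM. Msrb1, a selenium-containing methionine sulfoxide reductase, was higher at 0.66. Of 17 rows of NRF2 partners and conjugating, haem and iron genes, 2 were lower and 2 higher. At 11.8% each, these shares lay near the 8.28% and 7.95% of all rows. Mafk, a small MAF partner of NRF2, was at a log2 difference of −0.64 and the glucuronosyltransferase Ugt1a6a at 0.82. Among 17 selenoprotein and supply genes outside the rule, 2 were lower and 0 higher. The lower share of 11.8% again lay near the 8.28% of all rows. The lower ones were Sephs2, which makes the selenium donor, at −0.61 and Selenoo, a mitochondrial selenoprotein, at −0.54.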

How the data were processed

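RNA sequencing of BAT from 4 mice was analysed, grouped by the genotype and number in the labels. The authors deposited FPKM per gene symbol for each library. The labels' processing notes name Cufflinks 2.1.1, Cuffdiff and mm10 without their role, and the aligner and annotation are not given in the sources used here. For RNA and libraries, the paper describes TRIzol and TruSeq, but the labels a spin column with DNase digestion and a stranded kit. Rows with a mean FPKM above 1 in either genotype (12877) were fitted as log2(FPKM + 1) with limma 3.58.1 in R 4.3.3, with genotype as the only term and a trended prior. Log2 differences on this scale understate the change of low genes. Tests were two-sided, with Benjamini-Hochberg adjustment over all rows tested. A call is an unadjusted p under 0.05, as in the study. The code was tested on simulated data.

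Fragments were estimated from the lowest values of single-transcript genes and are approximate. They limit the precision of low members such as Nqo1. Coordinates, lengths and shared 50-base stretches come from GENCODE M21 (GRCm38) by symbol, and promoters from RefSeq. Values per library are given for called members and the most abundant member of each role, and others where a comparison needed them. Up to 8 called genes in each direction were named from the other redox lists, and the selenoprotein genes after their values were seen. The members and lists were chosen with earlier results of these data known. There were 14 alternatives: a replicate block, 3 other scalings, no FPKM limit or one of 5, pseudocounts of 0.1 and 0.01, limma without moderation, a correction for GC content and length by loess (span 0.5), and leaving out each library. The ChIP sequencing of the study was not analysed here. Plots used matplotlib 3.10.9.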

Additional observations from a re-analysis of the deposited data

How the results depend on the processing

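Gss, Sod2 and Txn2 were called lower and Gsta3 higher under all 14 alternatives. With one library left out, 3 to 8 members were called lower and 2 to 6 higher, and for the other redox genes 7 to 14 were lower and 5 to 9 higher, while the shares of all rows ran from 2.95% to 7.88% lower and 3.36% to 11.2% higher. The lower counts fell to 4 and 3 members without Sox4f/f mice 1 and 2. The median log2 difference of the members ran from −0.148 to 0.047 in those fits, positive without Sox4-MKO mouse 2. Without moderation, 6 members were called lower (12.2%) and 3 higher (6.12%), against 7.26% and 4.29% of all rows. Gpx8, Prdx5, Prdx6 and Txnrd2 were lost from the lower members there, and Gsta4 and Txnrd1 were gained. Gstm2, Mgst2 and Mgst3 were lost from the higher ones. Among the other redox genes, 11 were lower (15.5%) and 6 higher (8.45%). Fits with a library left out have fewer samples, and the cause was not tested further. Deviations of same-numbered mice correlated at −0.012. With 2 mice of each genotype, this value cannot tell whether same-numbered mice shared a litter or batch. With the replicate block, 7 members were lower and 4 higher, losing Prdx6, Gpx7 and Mgst3, against 7.28% and 7.53% of all rows. The 4 higher members (8.16%) were then near the background. Prdx6 lost its call in 9 of the alternatives and Gpx7 in 8, quantile normalization and an FPKM limit of 5 included. Sod1 turned to 0.068 after quantile normalization. Mgst1 turned to −0.021 with the correction for GC content and length and ran from −0.075 to 0.22 with one library left out, below 0 without Sox4f/f mouse 2 and without Sox4-MKO mouse 2 (−0.033). Sox4 ran from −0.32 to 0.71, below 0 without Sox4f/f mouse 2 (−0.071) and without Sox4-MKO mouse 2. The next counts cover only the called members and the most abundant member of each role, over the alternatives. There, 221 values kept their direction and side of the threshold, 40 lost the call, 1 gained it and 4 reversed. The 221 include uncalled members that stayed uncalled, such as Nfe2l2 and Prdx1, and all 40 losses were among the called members. Members outside this count, such as Gsta4 and Txnrd1, also gained calls in some alternatives.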
